A study of Mus musculus with 2 samples.

Results

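The complement genes beyond C1q that were examined here are *C1ra*, *C2*, *C3*, *C4b*, *Cfb*, *Cfi*, *Serping1*, *Cd55* and *Cd46*, 9 of the 25810 genes that carry a symbol in the deposited tables. They were found by their symbol, and all 9 were listed for both genotypes. Their transcripts were compared between mammary epithelial cells (MECs) of wild type (WT) mice and of *Igfbp7*-/- mice, in which the first coding exon of *Igfbp7* is deleted in all cells. The cells came from inguinal glands on day 3 of lactation and had been depleted of lineage positive cells with magnetic beads before poly(A) RNA was sequenced. The labels give C57BL/6 as the background of both groups, whereas the methods of the study say that the knockout was made on CD1. Each genotype was 1 library, the number of mice behind it was not given in the sources used here, and so no difference below has a replicate check or a p-value.

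Complement is a set of plasma and membrane proteins that mark microbes and dying cells for removal. The classical pathway starts when C1q binds a target and the proteases C1r and C1s, which travel with it, cut C4 and C2. The lectin pathway reaches the same step through mannose-binding proteins, and the alternative pathway runs on factor B and factor D. All of them meet at C3, whose fragment C3b coats the target and whose cleavage leads to the terminal components. Host cells limit the cascade with soluble inhibitors such as factor I and C1 inhibitor and with membrane regulators such as CD55 and CD46. The liver makes most of the complement in plasma, and epithelial cells, fibroblasts and macrophages make part of it locally. Milk also contains complement proteins.

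The mapped total of each library was worked out from the deposited counts and RPM of its most abundant genes. It was 34327854 reads for WT and 35016847 reads for *Igfbp7*-/-, of which 82.3% and 72.3% fell on listed genes. Levels are given in reads per 1000000 reads of that total (RPM), and levels of different genes are compared per kilobase of gene length (RPKM). Sums over genes and ranks are by RPM and are not corrected for length. Among genes with 1 to 20 reads, 75.8% of the counts in WT and 74.1% in *Igfbp7*-/- were even, so intervals were computed on pairs of reads. They are 95% Clopper-Pearson intervals of the ratio of reads and cover counting error only, not the variation between mice. The ratios themselves were calculated after adding 0.1 RPM to both values. A count of 0 allows up to 3 pairs, which is 0.175 RPM in WT MECs against 0.171 RPM in *Igfbp7*-/-. *Igfbp7* itself had 5224 reads in the WT library and 37 in the *Igfbp7*-/- library, in the direction of the labels.

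Of the 9 genes, 4 lie on chromosome 17 (NCBIM37, the mm9 assembly, with the GENCODE M1 annotation). *C4b* (chr17:34865325-34880827), *Cfb* (chr17:34993319-34999463) and *C2* (chr17:34999549-35035397) all lie on the minus strand within 170073 bases of each other, and only 85 bases separate *Cfb* from *C2*. *C3* is at chr17:57343397-57367559, also on the minus strand, and its transcript has 41 exons. *Cd55* (chr1:132335604-132359321) and *Cd46* (chr1:196867479-196918442) are on the minus strand of chromosome 1. *Serping1* lies at chr2:84605544-84615601 on the minus strand, *Cfi* at chr3:129539655-129578246 on the plus strand and *C1ra* at chr6:124462423-124473458 on the plus strand.

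For 3 of the genes a close copy is listed beside them in the tables, and reads from one can be placed on the other. The mouse *C4b* transcript was compared with *C4a*, the sex-limited protein gene, in windows of the lengths of the reads. Mismatches were counted here between bases, and whether the authors' limit of 3 was counted in the same way was not given in the sources used here. Of the 75-base windows of *C4b*, 23.5% had an identical match in *C4a*, and 67.0% had a match within 3 mismatches. For *C1ra* against *C1rb* these shares were 39.4% and 67.2%, and for *Cd55* against *Daf2*, which encodes the other form of decay accelerating factor, they were 9.39% and 20.9%. In windows of 35 bases, the length of the shorter read, all these shares were higher. They were 45.5% and 86.5% for *C4b*, 54.4% and 73.5% for *C1ra*, and 16.7% and 31.1% for *Cd55*. In the annotation *C1ra* and *C1rb* also overlap each other, *C1s* overlaps *C1rb* on the opposite strand, and whether reads were counted by strand was not given in the sources used here. No window of *C3* came within 3 mismatches of *C4b*, and none of *C2* within 3 of *Cfb*. The following stretches of 60 transcript bases were picked, within set limits, for the most differences between the copies. Other stretches can differ less, as the shares of identical windows show. They are written 5′ to 3′ on the transcript strand, and capitals mark the bases at which the copies differ, 9 in the C4 pair (chr17:34877325-34877384 for *C4b* and chr17:34956844-34956903 for *C4a*, NCBIM37, minus strand) and 4 in the C1r pair (chr6:124472274-124472333 for *C1ra* and chr6:124530323-124530382 for *C1rb*, plus strand).
C4b: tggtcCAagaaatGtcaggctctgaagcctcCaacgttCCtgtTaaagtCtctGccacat
C4a: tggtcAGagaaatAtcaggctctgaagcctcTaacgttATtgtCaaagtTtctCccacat
C1ra: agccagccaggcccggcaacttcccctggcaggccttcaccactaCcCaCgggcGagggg
C1rb: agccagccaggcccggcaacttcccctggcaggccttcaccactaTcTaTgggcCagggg

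*C3* and *Cd55* were higher in *Igfbp7*-/- MECs than in WT MECs, each by about as much as the other. *C4b* was also higher, by less than 1.5 times. *C1ra*, *C2* and *Cfb* were slightly lower, *Serping1* had the same level in both libraries, and *Cfi* and *Cd46* were close to or below the limit of detection. At least 1 RPM in one library, the minimum set for the comparison, was reached by 7 of the 9 genes, and all 7 reached it in both libraries. Of these 7, 2 (28.6%) were at least 1.5 times higher in *Igfbp7*-/-, and 21.4% of all 14026 genes past the minimum were. None of the 7 was at least 1.5 times lower, against 23.0% of all genes. The median log2 ratio of the 7 was 0.00 and that of all genes was 0.03, with 3 of the 7 above 0 and 4 below it. Added up, the 9 genes went from 958.1 RPM in WT to 1353 RPM in *Igfbp7*-/-. Without *C3* the sums were 611.4 and 638.4 RPM, and *C3* made up 36.2% of the summed RPM in WT and 52.8% in *Igfbp7*-/-. These are shares of reads, which grow with the length of a gene, and not shares of transcripts. Per length, *Serping1* and not *C3* had the highest level in both libraries.

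**Figure D1:**
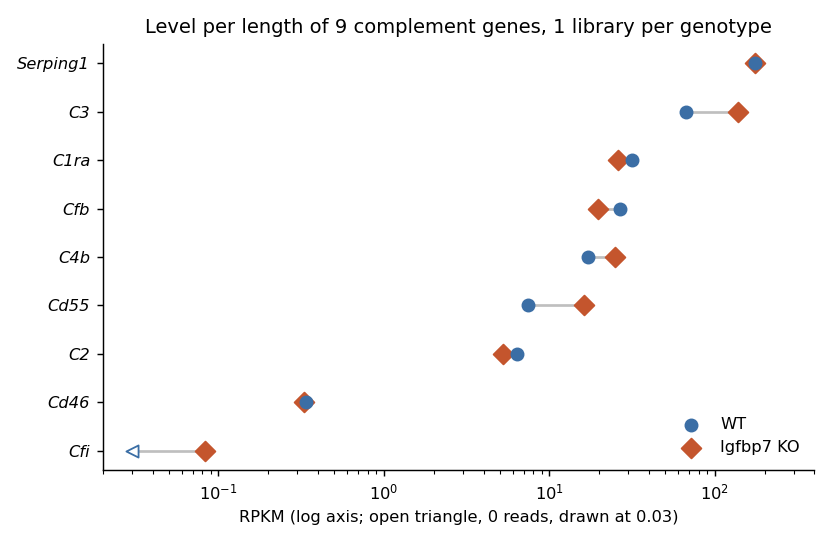
RPKM of the 9 complement genes on a log axis, with a circle for the WT library and a diamond for the *Igfbp7*-/- library. *Serping1* had the highest level per length in both libraries, *C3* and *Cd55* show the widest gaps among the genes above 1 RPKM, and *Cfi* had 0 reads in WT, drawn as an open triangle.

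Per length, the order of the levels in WT was *Serping1* (176 RPKM), *C3* (67.4), *C1ra* (31.4), *Cfb* (26.6), *C4b* (17), *Cd55* (7.42), *C2* (6.36), *Cd46* (0.336) and *Cfi* (0). In *Igfbp7*-/- it was *Serping1* (175 RPKM), *C3* (139), *C1ra* (25.9), *C4b* (24.8), *Cfb* (19.8), *Cd55* (16.2), *C2* (5.23), *Cd46* (0.330) and *Cfi* (0.0827). The only exchange of places was that of *C4b* and *Cfb*. *Serping1* had 2.61 times the RPKM of *C3* in WT and 1.26 times in *Igfbp7*-/-. With 1 library per genotype there is no spread against which neighbours in this order could be compared.

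*C3*, the component on which all activation pathways converge, had 11903 reads in WT MECs against 25013 reads in *Igfbp7*-/-. Its level went from 346.7 to 714.3 RPM, a 2.06-fold difference with a log2 ratio of 1.04 (95% counting interval 1.0 to 1.09). By RPM it was the gene with rank 263 in the WT library and rank 85 in the *Igfbp7*-/- library. Its log2 ratio was above that of 91.2% of all genes past the minimum. *C4b*, the component that C1s cuts to start the C3 convertase of the classical pathway, had 3169 reads (92.3 RPM) in WT MECs against 4719 reads (134.8 RPM) in *Igfbp7*-/-. Its log2 ratio of 0.55 (0.45 to 0.64) fell just short of 1.5 times, and its interval included that threshold. In 3 of 6 ways of scaling the libraries *C4b* passed 1.5 times, with a highest log2 ratio of 0.74. *C4a*, its close copy, had 17.7 RPM in WT MECs against 16.99 RPM in *Igfbp7*-/- (log2 ratio -0.06, -0.29 to 0.18). The intervals of the copies thus did not overlap, as far as the authors' counting kept them apart. For the reads of *C4a* and *C4b* together the log2 ratio was 0.46 (0.38 to 0.55). That value does not depend on how reads were divided between them, provided that shared reads were neither dropped nor counted on both.

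The early proteases *C1ra*, *C1s*, *C2* and *Cfb* did not follow *C3*, whereas *Masp2* of the lectin pathway, given below, was higher by less than 1.5 times. *C1ra*, the protease that activates C1s, had 2979 reads (86.8 RPM) in WT MECs against 2506 reads (71.6 RPM) in *Igfbp7*-/-, which gave a log2 ratio of -0.28 (-0.39 to -0.17). *C1rb*, its copy, went from 37.8 to 25.4 RPM (-0.57, -0.75 to -0.40), and the reads of both together gave -0.36 (-0.46 to -0.27). *C1s*, the partner protease, had 146.7 RPM in WT MECs against 154.8 RPM in *Igfbp7*-/- (0.08, 0.00 to 0.16). *C2*, the protease that joins C4b in the convertase, had 577 reads (16.8 RPM) in WT MECs against 484 reads (13.8 RPM) in *Igfbp7*-/-, which gave a log2 ratio of -0.28 (-0.53 to -0.03). *Cfb*, which takes the place of C2 in the alternative pathway, had 2530 reads (73.7 RPM) in WT MECs against 1922 reads (54.9 RPM) in *Igfbp7*-/-. Its log2 ratio of -0.42 (-0.55 to -0.30) was the lowest of the 7. *Cfb* and *C2*, which are neighbours on chromosome 17, were both lower in *Igfbp7*-/- with intervals that overlap, and *Cfb* had 4.19 times the RPKM of *C2* in WT and 3.79 times in *Igfbp7*-/-. All these ratios were within 1.5 times, and with the deposited totals the intervals of *C2*, *C1ra*, *C1rb* and *Cfb* lay below 0. The interval of *C1rb* included 1.5 times. With the reads on listed genes as the total the log2 ratios were -0.09 for *C1ra*, -0.09 for *C2* and -0.24 for *Cfb*. The RPKM of *C3* was 2.53 times that of *Cfb* in WT and 7.0 times in *Igfbp7*-/-.

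**Figure D2:**
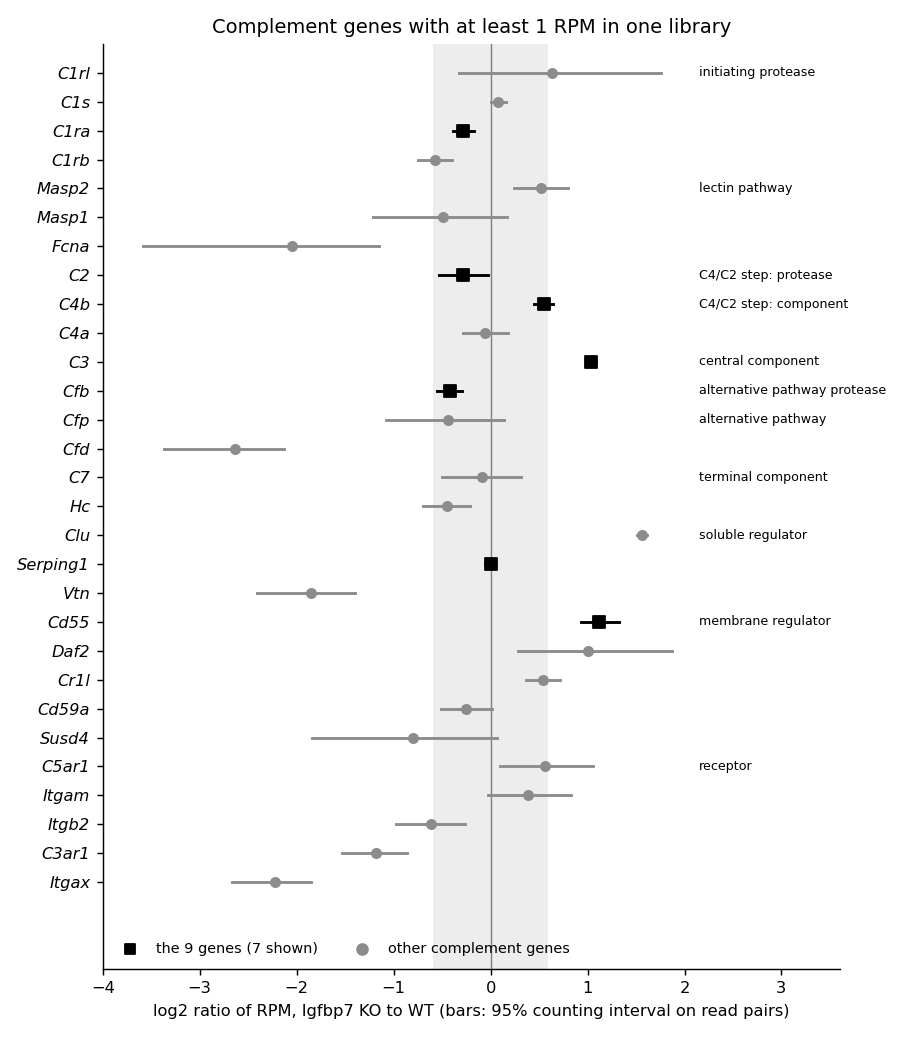
Log2 ratio of RPM, *Igfbp7*-/- to WT, for the complement genes that reached 1 RPM in either library and are reported here, grouped by role, with 95% counting intervals on read pairs as bars and the range within 1.5 times shaded. *C3*, *Cd55* and *Clu* lie to the right of the shaded range with their whole interval, and *Cfd*, *Fcna*, *Vtn*, *C3ar1* and *Itgax* lie to its left.

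Among the soluble regulators, *Serping1* encodes C1 inhibitor, the serpin that inactivates C1r and C1s. It had 11074 reads (322.6 RPM) in WT MECs against 11271 reads (321.9 RPM) in *Igfbp7*-/-, which gave a log2 ratio of 0.00 (-0.06 to 0.05). The counting interval of this ratio was the second narrowest of the 9 genes, after that of *C3*. The RPKM of *Serping1* was 5.59 times that of *C1ra* in WT and 6.76 times in *Igfbp7*-/-. *Cfi* encodes factor I, the protease that cuts C3b and C4b once a cofactor holds them. It had 0 reads in WT MECs against 6 reads (0.171 RPM) in *Igfbp7*-/-, which is at the limit that a count of 0 allows, so no ratio is given.

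The membrane regulators differed among themselves. *Cd55*, whose product takes apart the convertases on the cell surface, had 644 reads (18.8 RPM) in WT MECs against 1433 reads (40.9 RPM) in *Igfbp7*-/-. The difference was 2.18-fold, with a log2 ratio of 1.12 (0.93 to 1.32), above that of 92.5% of all genes past the minimum. *Daf2* had 43 reads (1.25 RPM) in WT MECs against 91 reads (2.60 RPM) in *Igfbp7*-/-, which gave a log2 ratio of 1.0 (0.28 to 1.87), and the reads of *Cd55* and *Daf2* together gave 1.12 (0.94 to 1.31). *Cd46* encodes membrane cofactor protein, which in mice is known mainly from the testis. It had 14 reads in each library (0.4078 and 0.3998 RPM), and its interval, from -1.77 to 1.71, shows that a difference of the size of *Cd55* could not have been detected at this depth. *Cr1l*, the rodent cofactor also called Crry, had 865 reads (25.2 RPM) in WT MECs against 1281 reads (36.6 RPM) in *Igfbp7*-/- (0.54, 0.36 to 0.72). Its RPKM was 44.8 times that of *Cd46* in WT and 66.3 times in *Igfbp7*-/-. *Cd59a*, which blocks the terminal pore, had 16.0 and 13.5 RPM (-0.25, -0.51 to 0.01). Of these regulators *Cd55* and *Daf2* were past 1.5 times, and *Cr1l* was just below it. The intervals of *Daf2* and *Cr1l* included that threshold, and that of *Cd55* did not.

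**Figure D3:**
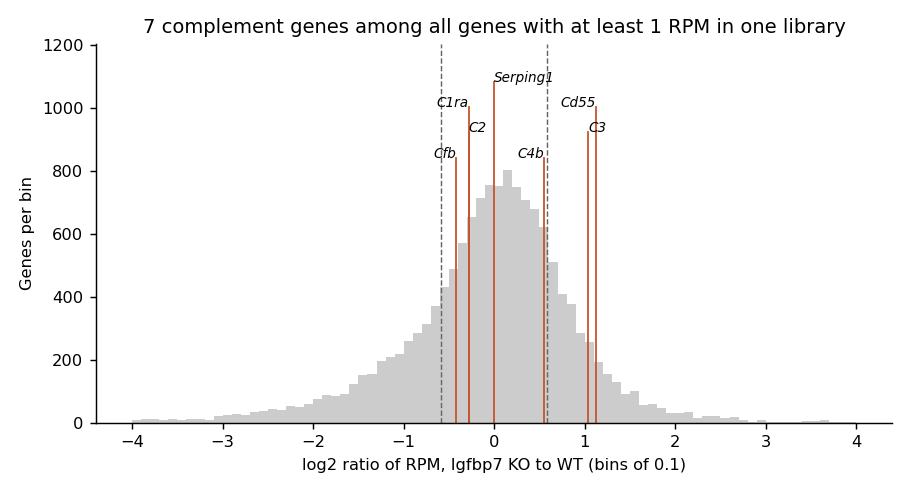
Distribution of the log2 ratio of RPM, *Igfbp7*-/- to WT, over the 14026 genes that reached 1 RPM in either library, in bins of 0.1, with dashed lines at 1.5 times in either direction and red lines at 7 complement genes. Ratios beyond 4 in either direction are not drawn, and *C3* and *Cd55* sit in the right shoulder while the other 5 fall between the dashed lines.

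Sequences upstream of the start of transcription were at hand for 4 of the 9 genes (RefSeq, GRCm38.p6). Those of *C3* and *Cd55*, the genes that were at least 1.5 times higher, are shown, 250 bases each, 5′ to 3′ on the transcript strand and ending at the base before the start (chr17:57228137-57228386 for *C3* and chr1:130462745-130462994 for *Cd55*, both minus strand). They were searched on both strands for the motifs of STAT proteins (TTCNNNGAA) and C/EBP proteins (TTGCNNAA), families of factors that act in the mammary gland at the end of lactation, and capitals mark a match.
C3: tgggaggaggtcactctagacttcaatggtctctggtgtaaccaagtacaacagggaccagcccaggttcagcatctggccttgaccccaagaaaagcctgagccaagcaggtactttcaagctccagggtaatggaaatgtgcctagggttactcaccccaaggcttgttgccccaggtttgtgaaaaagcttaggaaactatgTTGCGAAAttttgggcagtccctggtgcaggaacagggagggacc
Cd55: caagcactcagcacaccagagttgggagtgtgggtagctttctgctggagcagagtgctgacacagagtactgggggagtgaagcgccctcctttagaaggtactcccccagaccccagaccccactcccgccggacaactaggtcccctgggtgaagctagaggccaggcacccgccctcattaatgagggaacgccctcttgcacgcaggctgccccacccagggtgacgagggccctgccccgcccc
The *C3* sequence held 1 match to the C/EBP motif, which began 45 bases before the start and did not overlap another match. A match to that motif was found in 9.56% of all 32851 upstream sequences of the same length. The *Cd55* sequence matched neither motif, the STAT motif was found in neither of them, and 7.02% of all sequences held it. The upstream sequences of *C1ra* and *Cd46* matched neither motif.

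Beyond the 9 genes, a list of 44 other complement genes was examined, of which 42 were listed in the tables and 23 reached 1 RPM in one library. Of these 23, 3 (13.0%) were at least 1.5 times higher in *Igfbp7*-/-, 7 (30.4%) were at least 1.5 times lower and 13 were within 1.5 times, with a median log2 ratio of -0.25. Over all genes past the minimum these shares were 21.4% higher and 23.0% lower. *Clu*, which encodes clusterin, a secreted chaperone that also restrains the terminal complex, had the largest increase of the list, from 253.0 to 744.6 RPM (log2 ratio 1.56, 1.51 to 1.61). It moved from rank 430 to rank 79 by RPM. The others were *Daf2* and *C1rl*, and *C1rl*, a C1r-like protease, had only 28 and 46 reads with an interval that included 0 (0.63, -0.33 to 1.76). The lectin pathway protease *Masp2* went from 10.4 to 14.96 RPM (0.52, 0.24 to 0.80), and its relative *Masp1* had 2.65 and 1.86 RPM (-0.49, -1.21 to 0.17).

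Several of the lower genes are known from cells other than epithelium. *Cfd*, which encodes factor D or adipsin, the fat cell product that cuts factor B, was lowest, from 343 reads (9.99 RPM) in WT MECs down to 53 reads (1.51 RPM) in *Igfbp7*-/- (-2.64, -3.37 to -2.13). *Fcna*, a ficolin of macrophages, went from 2.21 to 0.457 RPM (-2.05, -3.59 to -1.15). *Vtn*, which encodes vitronectin, an inhibitor of the terminal complex, went from 9.21 to 2.48 RPM (-1.85, -2.41 to -1.40). The receptor genes of leukocytes *Itgax* (16.9 to 3.54 RPM, -2.22), *C3ar1* (14.3 to 6.28 RPM, -1.18) and *Itgb2* (9.53 to 6.20 RPM, -0.61) were also lower, and the interval of *Itgb2* (-0.98 to -0.26) included 1.5 times. The receptor genes *C5ar1* (3.64 and 5.43 RPM, 0.56, 0.10 to 1.06) and *Itgam* (4.78 and 6.28 RPM, 0.39, -0.03 to 0.83) had values above those of WT that were within 1.5 times. *Susd4*, a membrane inhibitor, had 57 and 32 reads (-0.80, -1.84 to 0.07). *Cfp*, which encodes properdin, had 3.26 and 2.37 RPM (-0.44, -1.08 to 0.14).

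Of the terminal components, *Hc*, which encodes C5, had 18.5 RPM in WT MECs against 13.5 RPM in *Igfbp7*-/- (-0.45, -0.70 to -0.21), and *C7* had 6.23 and 5.85 RPM (-0.09, -0.50 to 0.31). *C6*, *C8g* and *C9* had at most 13 reads in a library, and no reads were counted for *C8a* and *C8b*. In all, 9 of the 42 genes had 0 reads in both libraries. Each 0 allows a level of up to 0.175 RPM in WT MECs against 0.171 RPM in *Igfbp7*-/-. With the reads on listed genes as the total, 6 genes of this list were higher and 6 lower, and the same total moved the shares over all genes to 30.6% higher and 18.6% lower.

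The depletion of lineage positive cells bears on these genes. Cells carrying CD45, the leukocyte antigen, or Ter119, the erythroid antigen, were removed with the beads, according to both sources. The labels name CD35 as the other depleted marker where the methods of the study name CD31. CD35 is itself a complement receptor, made in mice from the gene *Cr2*, and CD31, encoded by *Pecam1*, marks endothelial cells. The methods also describe a check by flow cytometry in which few of the remaining cells carried these markers. *Cr2* had 15 reads in WT MECs against 4 in *Igfbp7*-/- (0.437 and 0.114 RPM), whereas *Pecam1* had 322.5 RPM in WT MECs against 88.9 RPM in *Igfbp7*-/-. *Ptprc*, which encodes CD45, had 43.5 and 18.1 RPM. Transcripts of endothelial cells and leukocytes were thus counted in both libraries after a depletion meant to remove leukocytes and, by the methods, endothelial cells.

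Markers of other cell types that can make complement differed between the libraries. The 3 genes of C1q, the macrophage product at the head of the classical pathway, were all lower in *Igfbp7*-/-, with a summed level of 49.2 RPM in WT MECs against 10.5 RPM in *Igfbp7*-/-, and the most abundant of them, *C1qa*, had 21.9 and 3.88 RPM. Of 9 macrophage markers, 5 were at least 1.5 times lower and none higher. The sum of all 9 was 627.0 RPM in WT MECs against 744.0 RPM in *Igfbp7*-/-. *Cd14*, the most abundant and the only one above its WT value, had 469.9 and 677.4 RPM. Without *Cd14* the sum was 157.2 RPM in WT MECs against 66.5 RPM in *Igfbp7*-/-. All 6 leukocyte markers were lower (134.7 and 43.6 RPM summed), among them *Laptm5* (72.7 and 20.7 RPM). Of 8 endothelial markers, 7 were lower (1201 and 378.9 RPM summed), with *Cdh5*, the cadherin of vessels, at 583.7 and 183.5 RPM. Of 9 fibroblast markers, 4 were lower and 5 within 1.5 times, and their sum went from 9327 to 4813 RPM. Most of that sum came from the collagen genes *Col3a1* (4670 and 1950 RPM), *Col1a1* (1530 and 893.7 RPM) and *Col1a2* (1416 and 815.2 RPM). The log2 ratio was below 0 for 7 of the 9 and above 0 for 2, *Pdgfra* (0.45, 0.36 to 0.55) and *Pdgfrb* (0.34, 0.21 to 0.47). Of the 5 adipocyte markers past the minimum, 3 were lower and 1 higher (573.5 and 207.9 RPM summed over 7). *Fabp4*, the fatty acid carrier of fat cells, had 543.5 and 173.4 RPM and so made up most of that sum. *Adipoq* (5.59 and 0.9995 RPM) and *Cidec* (4.57 and 1.03 RPM) were the other lower ones. *Lep* (8.04 and 16.85 RPM) was higher, and *Lipe* (10.55 and 15.48 RPM) was above its WT value but within 1.5 times. Of the 8 myoepithelial markers, 7 were lower (3133 and 996.5 RPM summed), with the smooth muscle actin gene *Acta2* at 1052 and 226.7 RPM. Of the 4 neutrophil markers past the minimum, 2 were lower and 1, *Ltf*, which milk epithelium also makes, was higher (369.0 and 1711 RPM). The 4 listed erythroid genes were all within 1.5 times (1066 and 1243 RPM summed, *Hbb-b1* 668.9 and 696.9 RPM).

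The luminal epithelial markers split. The keratin and junction genes *Krt8*, *Krt18*, *Krt19*, *Epcam* and *Cdh1* were higher or within 1.5 times, with a sum of 1311 RPM in WT MECs against 3191 RPM in *Igfbp7*-/-, and *Krt18* had the largest log2 ratio (2.23). The milk protein genes *Csn2*, *Wap* and *Lalba* were all lower (67220 and 24025 RPM summed), and *Elf5*, a transcription factor of alveolar cells, had 137.3 and 95.9 RPM (-0.52). Markers of the labelled epithelial source were thus counted in both libraries, beside the markers of other cell types given above. None of the 7 liver markers reached 1 RPM. *Alb*, *Ttr* and *Fgb* had 0 reads in both libraries, *Fga* had 20 and 30 reads, *Serpina1a* had 16 and 12, and the other two had at most 5 reads in a library. The part of cell composition in the differences of the complement genes was not tested, and in such bulk samples fewer cells of a type and less RNA per cell cannot be told apart.

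**Figure D4:**
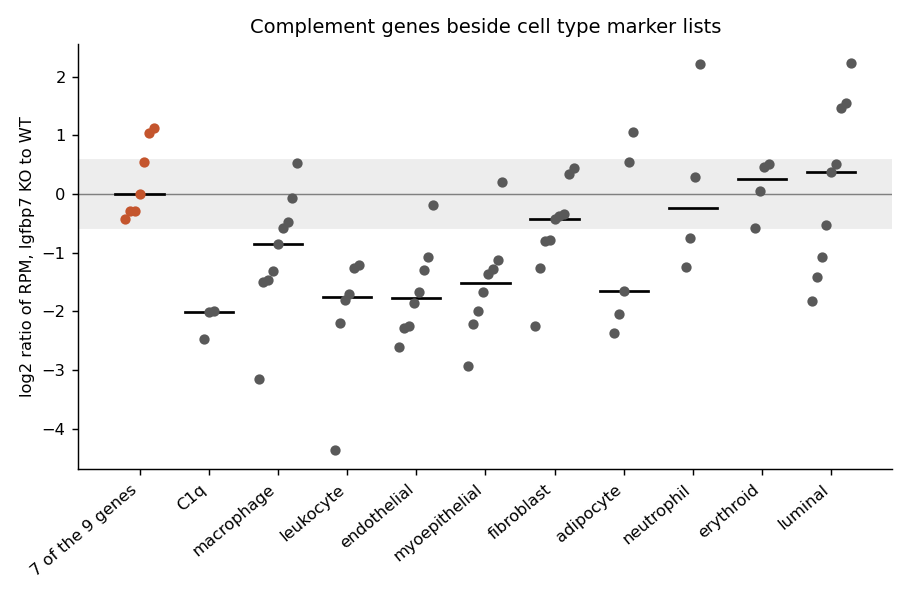
Log2 ratio of RPM, *Igfbp7*-/- to WT, of each gene that reached 1 RPM in either library, by list, with black bars at the median and the range within 1.5 times shaded. The leukocyte, endothelial, myoepithelial and C1q lists lie mostly below the shaded range, the luminal markers spread from -1.83 to 2.23, and 5 of the 7 complement genes lie inside it.

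The ratios of the 9 genes depend on the library total, because 82.3% of the mapped reads in WT but 72.3% in *Igfbp7*-/- fell on listed genes. Over 6 scalings the log2 ratio of *C3* ranged from 1.02 to 1.24 and that of *Cd55* from 1.10 to 1.32, and both passed 1.5 times in all 6. The ratio of *Cfb* ranged from -0.45 to -0.23, those of *C1ra* and *C2* both from -0.30 to -0.08, and that of *Serping1* from -0.02 to 0.20, and none of these genes passed 1.5 times under any of them. The median over all genes moved as well, from 0.03 with the deposited totals to 0.22 with the reads on listed genes as the total. With that total 30.6% of all genes were at least 1.5 times higher and 18.6% lower, in place of 21.4% and 23.0%.

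**Figure D5:**
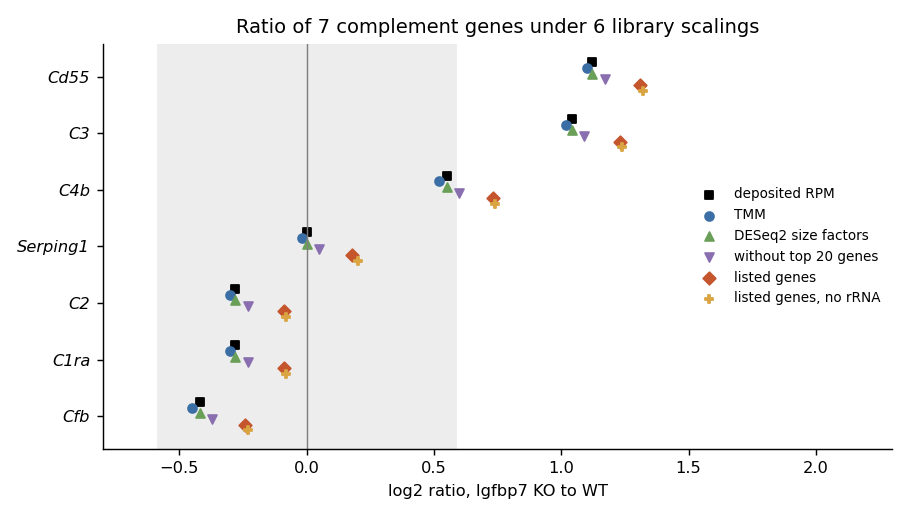
Log2 ratio, *Igfbp7*-/- to WT, of 7 complement genes under 6 ways of scaling the libraries, with the range within 1.5 times shaded. *C3* and *Cd55* lie to the right of the shaded range under every scaling, *C4b* crosses its edge, and the other 4 stay inside it.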

How the data were processed

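Poly(A) RNA from lineage-depleted MECs was sequenced on a SOLiD instrument, 1 library per genotype. The authors mapped the reads in GeneSifter with a Bowtie pipeline that allowed 3 mismatches. The submitters' processing notes name Bowtie 0.12.3, SAMtools 0.1.15 and mm9, whereas the paper names a human build. The treatment of reads with several matches was not given in the sources used here. The authors deposited read counts per gene, the RPM and the RPKM, the last from gene lengths of their own. Rows without a symbol held 0.0408% of the WT and 0.0484% of the *Igfbp7*-/- reads and were left out. The RPM denominator exceeds the reads on listed genes, so reads elsewhere lower every RPM of a library.

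Ratios were computed from RPM with 0.1 RPM added, for genes that reached 1 RPM in either library, against a threshold of 1.5 times, without a p-value. The scripts were tested on simulated data. The members and gene lists were chosen with earlier results of these data known. Named were all members, all other complement genes past the minimum but 1, which is counted in its list and not reported here, the closest copies, *Igfbp7*, and of each marker list its most abundant and undetected genes. Others, among them *Pecam1*, *Ptprc*, *Elf5*, further fibroblast and adipocyte markers and genes below the minimum, were named after their values were seen. Alternatives were edgeR 4.0.16 (TMM), DESeq2 1.42.0 (size factors), other totals, pseudocounts, minima, RPKM and a threshold of 2. Python 3.11.15, scipy 1.17.1 and pandas 2.3.3 were used.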

Additional observations from a re-analysis of the deposited data

How the results depend on the processing

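The count of complement genes among the 9 that were at least 1.5 times higher was 2 or 3 under every alternative, and none was lower under any. Over all genes the share that was higher ranged from 9.64% to 31.3%, and the share that was lower from 13.8% to 26.2%. The third was *C4b* with the reads on listed genes, with or without rRNA, as the total and with a total without the 20 most abundant genes. With no minimum it was *Cfi*, whose value rests on 6 reads. The median log2 ratio of the 7 genes past the minimum rose to 0.18 with the reads on listed genes as the total and to 0.20 without rRNA in that total, an alternative chosen after seeing the data. Of the other complement genes, the higher ones numbered 6 with the reads on listed genes as the total, 7 with rRNA left out as well, 5 with a total without the 20 most abundant genes, 5 with no minimum, 1 with at least 10 RPM in one library and 1 with a threshold of 2, against 3 as reported. The lower ones numbered 11 with no minimum and 2 with at least 10 RPM, against 7. In the order given for the higher ones, the shares of all genes that were higher were 30.6%, 31.3%, 24.4%, 23.5%, 20.7% and 9.64%. As reported that share was 21.4%. The shares of all genes that were lower were 26.2% with no minimum and 20.4% with at least 10 RPM, against 23.0%. By construction a minimum of 10 RPM tests fewer of these genes (11) and no minimum more (33) than the 23 reported, and a threshold of 2 calls fewer. The listed totals raise the ratios, that of *C3* by 0.19 and, without rRNA, by 0.20, and the total without the 20 most abundant genes raises it by 0.05. No ratio of a called gene among the 9 changed sign. Intervals on single reads in place of pairs were narrower by construction. No replicate could be left out with 1 library per genotype. No paired analysis was possible because each genotype had 1 library. At this depth *Cd46* (14 reads per library) and *Cfi* cannot show a difference of 2-fold.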
